A study of Rattus norvegicus with 9 samples.

Results

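Ribosome biogenesis factors are the proteins that transcribe, modify, cut and fold ribosomal RNA and carry the pre-ribosomes out of the nucleus. The set described here has 10 such genes: Rrp12, Nop56, Nop58, Fbl, Ncl, Npm1, Dkc1, Polr1b, Rrp9 and Wdr12. They were listed by symbol, and Rrp12 led to the list because its signal differed between the diets on these same arrays. Diet differences of the 10 genes are therefore given as a description, and their counts in the fit across all probe sets are printed only beside the background share. A probe set was taken for a gene only where the platform annotation gave that symbol alone. This left 9 of the 10 genes, of 14217 genes with such a probe set, and all 12 of their probe sets passed the filter on low signals. Npm1, a nucleolar histone chaperone, has no value here, because the 3 probe sets that name it also name the pseudogene Npm1-ps9.

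RNA came from islets, the endocrine clusters of the pancreas, isolated from adult male Wistar rats by collagenase digestion and hand-picking. The rats, caged singly and 7 weeks old at the start, had standard chow or cafeteria food for 30 days, with fat giving 8% and 66% of the calories. Each sample was hybridised to an Affymetrix Rat Genome 230 2.0 array, and 4 standard and 5 cafeteria arrays were analysed. The labels call the samples independent biological replicates, without saying whether each is 1 rat; p-values measure the spread between these arrays. The design text names 1 more standard sample, not analysed here. Groups were taken from the titles. A separate diet entry contradicts the title in 9 of 9 samples, and grouping by that entry would reverse the sign of each log2 fold given here, but of no within-group correlation. Values are linear array signals, and log2 folds are cafeteria over standard on the log2(signal + 16) scale. The number of arrays limits the precision.

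Ribosome production starts in the nucleolus. RNA polymerase I makes a long precursor, small nucleolar ribonucleoproteins place methyl groups and pseudouridines on it, and assembly factors then split it into the precursors of the small and large subunits. Many of these genes carry E-boxes that Myc and its relatives bind, and their output is known to follow growth and secretory load. Beta cells, which make large amounts of insulin, depend on a large pool of ribosomes.

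The RefSeq promoter windows of the genes (build GRCr8, 250 bases before to 50 bases after the start) were searched on both strands for 4 motifs. The E-box CACGTG, which reads the same on both strands, was found in 3 of 10 windows, those of Rrp12, Fbl and Dkc1, and in 6.42% of all 33469 windows in the table. The ETS-type letters CCGGAAG were in the windows of Nop58, Fbl and Dkc1, against 8.75% of all windows. The GC box GGGCGG was in 8 of 10, the exceptions being Rrp12 and Rrp9, against 33.1%, and TATAAA in those of Rrp12 and Nop58, against 14.2%. A match is only a match of letters. The stretches of the 3 windows that hold an E-box are printed because they include that of Rrp12; capitals mark E-box and ETS-type letters.
Rrp12 (chr1:250655310-250655438, minus strand): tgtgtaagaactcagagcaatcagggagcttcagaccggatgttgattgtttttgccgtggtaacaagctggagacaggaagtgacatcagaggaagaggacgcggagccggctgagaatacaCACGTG
Fbl (chr1:92597287-92597433, plus strand): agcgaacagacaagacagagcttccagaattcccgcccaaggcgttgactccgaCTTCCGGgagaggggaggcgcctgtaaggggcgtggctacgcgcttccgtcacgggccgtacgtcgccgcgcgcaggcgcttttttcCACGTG
Dkc1 (chrX:157751447-157751598, plus strand): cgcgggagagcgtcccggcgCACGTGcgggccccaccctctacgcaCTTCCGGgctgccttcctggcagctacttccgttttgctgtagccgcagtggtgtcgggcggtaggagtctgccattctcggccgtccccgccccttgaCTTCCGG
In Rrp12 and Fbl the E-box lies just after the annotated start, at positions 4 and 22 counted from 1 at the start, and in Dkc1 it lies upstream, at -184.

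Rrp12 is a HEAT-repeat protein needed for the maturation and nuclear export of pre-ribosomes. Its main probe set, 1383675_at, read 227, 264, 246 and 289 on standard replicates 1 to 4. On cafeteria replicates 1 to 5 it read 283, 446, 618, 449 and 580.1. The standard arrays lay close together, 4 of 5 cafeteria arrays lay above all of them, and cafeteria replicate 1 lay within their range. The group means were 256 ± 26.7 (SD, n = 4) and 475 ± 132 (SD, n = 5), a log2 fold of 0.81 ± 0.20 (SE), or 1.75-fold. This is the difference that chose the gene, and it ranked 104th in size among the 18625 probe sets that passed the filter. With each array left out in turn the log2 fold lay between 0.70 and 0.98.

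**Figure D1:**
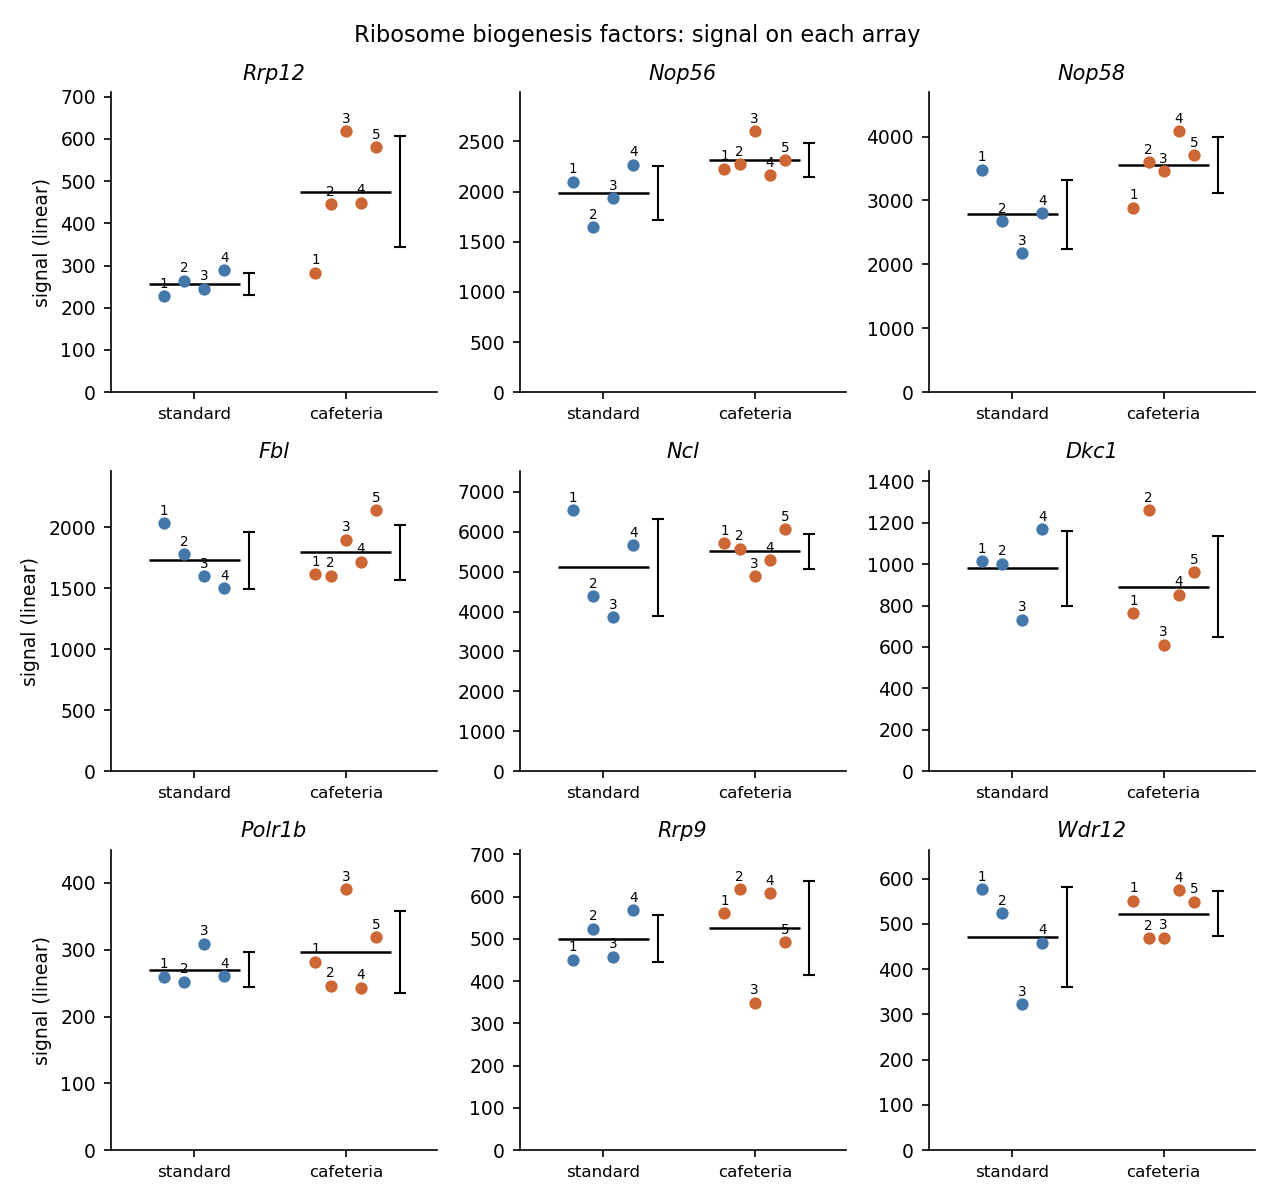
Signal (linear scale) of the main probe set of each of 9 ribosome biogenesis factors on 4 standard and 5 cafeteria arrays; digits are replicate numbers, horizontal lines group means and bars the SD. Rrp12 has 4 of 5 cafeteria arrays above all standard arrays, while the groups overlap for each gene shown.

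The other 2 probe sets that name Rrp12 gave smaller differences. The probe set 1386668_a_at read 159, 277, 235 and 205 on the standard arrays and 222, 281, 238, 307 and 275 on the cafeteria arrays, in replicate order. Its log2 fold was 0.27 ± 0.18 (SE), and 2 of 5 cafeteria arrays lay above all standard ones. The probe set 1386669_at read 157, 206, 180.4 and 212, then 155, 235, 138, 291 and 184. Its log2 fold was 0.04 ± 0.22 (SE), with 2 cafeteria arrays above and 2 below all standard arrays. With the log2 values of the 3 probe sets averaged, Rrp12 had a log2 fold of 0.37 ± 0.16 (SE). The size of the Rrp12 difference thus depended on the probe set. Cafeteria replicate 3 was the highest of the 9 arrays on the main probe set and the lowest on 1386669_at.

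**Figure D2:**
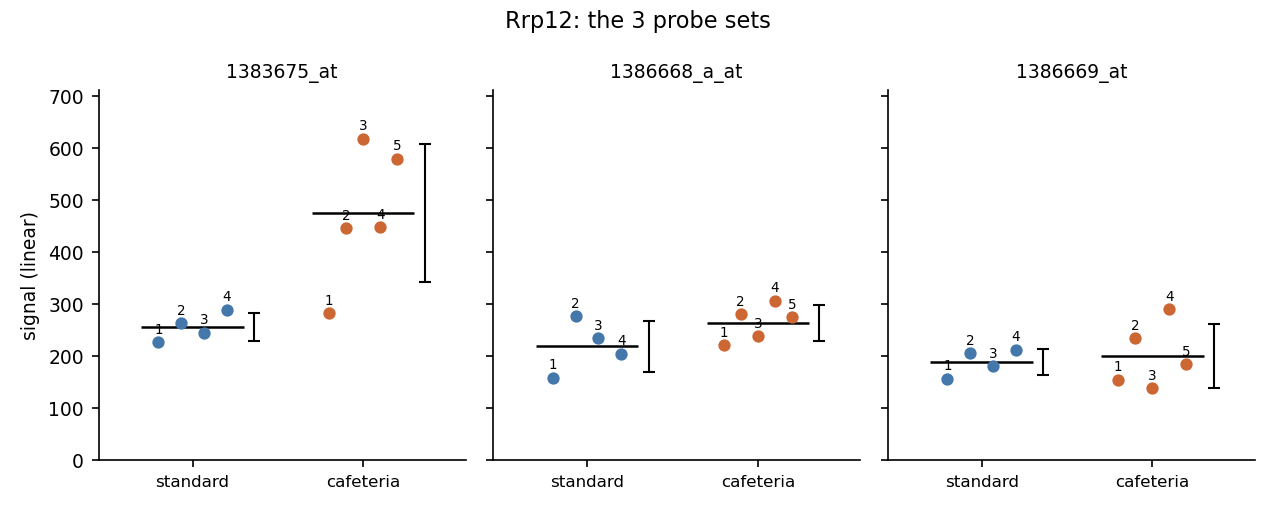
Signal (linear scale) of the 3 Rrp12 probe sets on each array; digits are replicate numbers, lines group means and bars the SD. The main probe set, on the left, has a log2 fold of 0.81, and the others have 0.27 and 0.04 with widely overlapping groups.

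The probe sets of Rrp12 were also compared from array to array within the groups, which leaves out the diet difference. After the group mean was taken from each log2 value, the main probe set had a Pearson r of 0.294 with 1386668_a_at over 9 arrays (Spearman rho 0.217, exact permutation p = 0.359 and 0.575). With 1386669_at it had an r of 0.0488 (rho 0.0167, exact permutation p = 0.915 and 0.984). The 2 other probe sets had an r of 0.675 with each other (rho 0.700, exact permutation p = 0.0188 and 0.0267). Adjusted over the 4 same-gene pairs computed, the Pearson p-values were 0.479, 0.915 and 0.075, so none passed 0.05. Without the 2 arrays farthest from the median the r values were 0.257, -0.0114 and 0.580. The positions of the probes along the Rrp12 transcript were not analysed here.

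The box C/D proteins form the particle that places 2'-O-methyl groups on ribosomal RNA. Nop58, a core subunit, had the largest log2 fold after Rrp12 among the main probe sets. It read 3480.1, 2679, 2172 and 2805 on the standard arrays and 2887, 3604, 3460.2, 4085 and 3712 on the cafeteria arrays. Standard replicate 1 reached into the cafeteria range, and 3 of 5 cafeteria arrays lay above all standard ones. The log2 fold was 0.36 ± 0.14 (SE), between 0.25 and 0.47 with each array left out.

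Nop56, the partner of Nop58 in the same particle, read 2099.6, 1642, 1932 and 2269 in standard islets and 2228, 2272, 2602, 2162 and 2309.6 in cafeteria islets. The cafeteria arrays spanned less than the standard ones, and 3 of 5 lay above all of the latter. The log2 fold was 0.23 ± 0.11 (SE), and 0.14 without standard replicate 2, the lowest array. A second Nop56 probe set, 1395998_at, read 144, 161, 192 and 154, then 264, 234, 178, 249 and 199, a log2 fold of 0.42 ± 0.18 (SE). Both probe sets were higher on average in cafeteria islets. Within the groups their r was -0.538 over 9 arrays (rho -0.683, exact permutation p = 0.126 and 0.0542, adjusted Pearson p = 0.251), so a correlation was not detected. Without the 2 arrays farthest from the median, r was -0.868. Fbl, the methyltransferase of the particle, had signals of 1504 to 2037 in standard and 1603 to 2142 in cafeteria islets. Its log2 fold was 0.05 ± 0.12 (SE), and with each array left out it ran from -0.01 (without cafeteria replicate 5, and likewise without standard replicate 4) to 0.14 (without standard replicate 1).

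Dkc1 is the pseudouridine synthase of the box H/ACA particle and was the only gene of the 9 with a negative log2 fold in the main setting. It read 1014, 1002, 732 and 1169 on the standard arrays and 764, 1261, 611, 853 and 961 on the cafeteria arrays. The highest and the lowest reading were both in the cafeteria group. The log2 fold was -0.16 ± 0.19 (SE), between -0.29 and -0.03 with each array left out.

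Ncl, an abundant nucleolar phosphoprotein that acts in rDNA transcription and processing, ranged from 3862 to 6543 on standard and from 4888 to 6065 on cafeteria arrays. All cafeteria readings lay inside the standard range, and the log2 fold was 0.13 ± 0.14 (SE). Dropping standard replicate 3 gave 0.010, dropping standard replicate 2 gave 0.07 and dropping standard replicate 1 gave 0.26. Polr1b, the second-largest subunit of RNA polymerase I, read 259.6, 252, 309 and 260.2 in standard and 282, 246, 391, 243 and 319 in cafeteria islets, a log2 fold of 0.11 ± 0.17 (SE). This value was 0.0077 without cafeteria replicate 3, its highest reading, and 0.17 without standard replicate 3 or without either of the low cafeteria replicates 2 and 4.

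Rrp9, a protein of the U3 particle that acts in small subunit processing, read 451, 524, 458 and 568, then 560.4, 618, 349, 609 and 493. Cafeteria replicate 3 was the lowest of all arrays here. The log2 fold was 0.05 ± 0.17 (SE); it was 0.18 without that array, -0.015 without cafeteria replicate 2 and -0.01 without cafeteria replicate 4. Wdr12, which works with Pes1 and Bop1 on the large subunit, ranged from 322 to 577 in standard and from 469 to 575 in cafeteria islets, a log2 fold of 0.17 ± 0.17 (SE). This value was 0.0089 without standard replicate 3, its lowest array, and 0.28 without standard replicate 1, its highest.

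**Figure D3:**
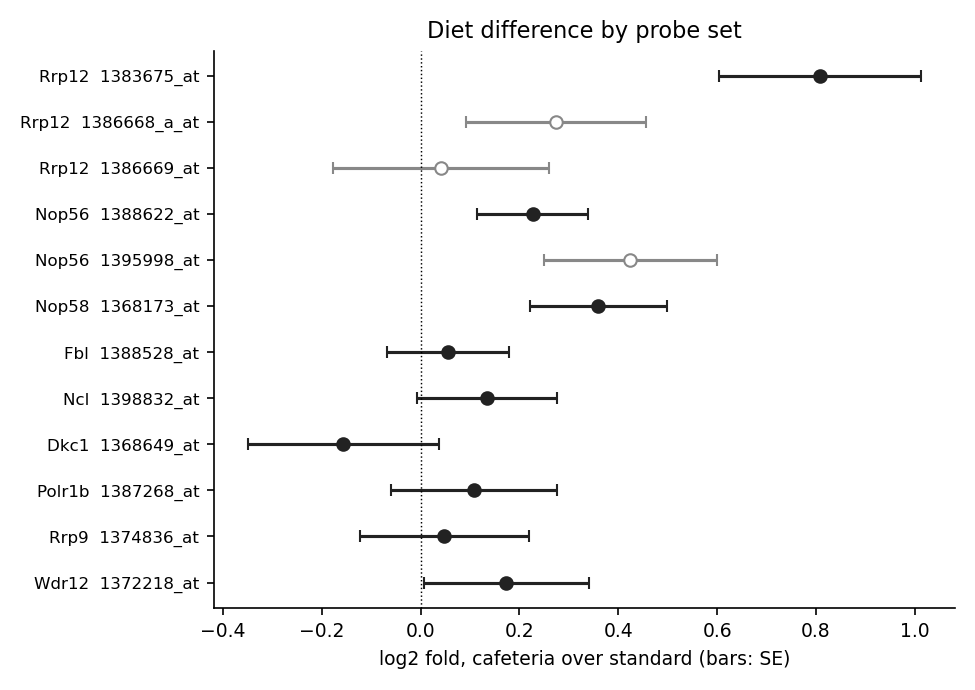
Log2 fold of cafeteria over standard for each of the 12 probe sets, with bars for the SE; filled circles are main probe sets and open circles the others. Rrp12 1383675_at stands at 0.81, the other main probe sets lie between -0.16 and 0.36, and the 3 Rrp12 probe sets spread from 0.04 to 0.81.

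Across the 9 main probe sets, 8 had a log2 fold above 0 and 1 below it, where 48.1% of all 18625 probe sets tested were above 0. Without standard replicate 4 or cafeteria replicate 2, 4 or 5 the count was 7. The median was 0.13, and 0.12 without Rrp12, beside -0.01 for all probe sets. With standard replicate 3 left out this median was 0.02, with standard replicate 2 left out 0.08, and with standard replicate 1 left out 0.26. After limma's Benjamini-Hochberg adjustment 0 of 9 were below 0.05, as were 0% of all probe sets (lowest adjusted p = 0.228). Unadjusted limma p-values below 0.05 were found for 2 of 9, Rrp12 and Nop58, both higher in cafeteria islets. Of all probe sets tested, 1080 or 5.8% had such a value, 3.01% higher and 2.79% lower in cafeteria islets. The groups did not overlap for 0 of 9, against 1.76% of all (0.999% higher and 0.762% lower). As the genes were chosen with this contrast known, nothing is read from these counts.

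Whether Rrp12 moved with the rest was asked within the diet groups, where the contrast that chose it plays no part. Over 9 arrays, with group means removed, Rrp12 had positive correlations with 4 of the 8 other genes and negative ones with 4. Its centred log2 values ran from -0.16 to 0.17 on standard and from -0.67 to 0.42 on cafeteria arrays. Cafeteria arrays, above all replicates 1 and 3, therefore weighed most in these correlations. The highest Pearson r was 0.467, with Polr1b (rho 0.267), and the lowest -0.444, with Rrp9 (rho -0.167). Without cafeteria replicate 3 these were 0.116 and 0.00875. The r was 0.377 with Fbl, 0.337 with Nop56 and 0.305 with Nop58. It was -0.00217 with Dkc1, -0.144 with Ncl and -0.178 with Wdr12. By exact permutation over the 2880 reorderings of arrays within the groups, the lowest of the 8 p-values was 0.247, and the lowest after Benjamini-Hochberg adjustment over the 8 was 0.628 (0.877 for Spearman's rho). A correlation was therefore not detected with any of the 8, and 9 arrays leave wide room for one. Without cafeteria replicates 1 and 3, the arrays farthest from the median of Rrp12, the r values were 0.353 for Polr1b, 0.0551 for Rrp9, 0.153 for Fbl, 0.127 for Nop56 and -0.139 for Nop58. For Dkc1, Ncl and Wdr12 they were 0.222, 0.0923 and 0.0226. The other Rrp12 probe sets gave another order: with 1386669_at, Polr1b had the lowest r, -0.757, and Rrp9 the highest, 0.781, and with 1386668_a_at Nop56 had the lowest, -0.674, and Rrp9 the highest, 0.365.

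The 28 pairs that leave out Rrp12 had a median r of 0.212, from -0.912 to 0.715, and the 8 pairs with Rrp12 a median of 0.151. The latter was -0.116 without cafeteria replicate 1, 0.0447 without cafeteria replicate 5 and 0.0882 without standard replicate 4. These values are a description over the same 9 arrays. Dkc1 and Rrp9 had 0.715, Ncl and Wdr12 0.696, Nop58 and Wdr12 0.685, and Nop58 and Ncl 0.663. Polr1b ran against Rrp9 (-0.912) and Dkc1 (-0.729). Cafeteria replicate 3 held the lowest Rrp9 and Dkc1 readings and the highest Polr1b reading. In these signals the 9 genes had no single direction from array to array, and the part of measurement noise was not tested.

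**Figure D4:**
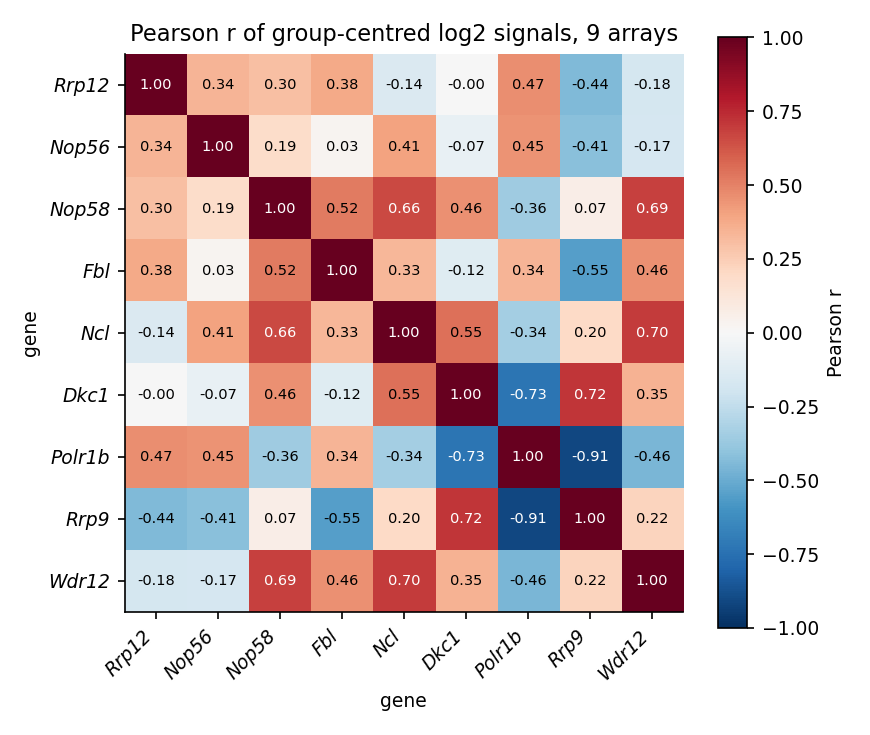
Pearson r between log2 signals of the 9 genes over 9 arrays after removal of the group means, from -1 (blue) to 1 (red). The row of Rrp12 runs from -0.444 to 0.467, while Nop58, Ncl and Wdr12 share values of 0.663 to 0.696 and Polr1b and Rrp9 stand at -0.912.

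Among 10346 other genes ranked by their within-group r with the Rrp12 main probe set over the 9 arrays, the members lay between rank 1717 (Polr1b) and rank 8325 (Rrp9). The 8 most similar genes were Tcfl5, Mybbp1a, Tead4, Ccnyl1, Chn2, Pknox1, Serpine2 and Zcchc12, with r from 0.940 to 0.971. Their log2 folds ran from -0.03 (Tead4) to 0.76 (Tcfl5), and Mybbp1a had 0.24. The highest of so many correlations over 9 arrays are high by selection, and they are given as a ranking.

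Array quality differed within the groups. The ratio of the 3' to the 5' beta-actin control probe sets, which is higher where RNA or its copy is shorter, ran from 3.00 to 4.84 on standard and from 2.79 to 5.63 on cafeteria arrays. Cafeteria replicate 3 had the highest ratio and the highest Rrp12 reading, and cafeteria replicate 1 the lowest ratio and the lowest Rrp12 reading of its group. The same ratio of the GAPDH control probe sets gave another order. It was highest on standard replicate 1 (1.64) and lowest on cafeteria replicate 4 (1.29), with 1.53 on cafeteria replicate 3 and 1.32 on cafeteria replicate 1. Within the groups, the log2 beta-actin ratio had an r of 0.622 with Rrp12 over 9 arrays (rho 0.433, exact permutation p = 0.128 and 0.306). It had 0.807 with Fbl (rho 0.783, exact permutation p = 0.0174 and 0.0313) and -0.779 with Rrp9 (rho -0.683, exact permutation p = 0.0243 and 0.0688). Adjusted over the 9 genes, the Pearson p-values were 0.383, 0.109 and 0.109, so none passed. Without cafeteria replicate 3 and standard replicate 1, the r values were 0.745, 0.809 and -0.435. With the beta-actin ratio as a covariate, the Rrp12 log2 fold was 0.77. Without cafeteria replicate 3 and standard replicates 1 and 3, which stood apart in the ratio or in cell markers, it was 0.60 and 8 of 9 genes were above 0.

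Other cell types were measured in the same RNA, and in whole islets fewer cells of a type cannot be told apart from less RNA per cell. The islet markers Iapp and Gcg had mean signals of 41378 and 40403 in standard and 44664 and 42076 in cafeteria islets. The log2 fold was above 0 for 5 of 7 beta cell markers (median 0.09) and for 1 of 2 alpha cell markers. It was below 0 for 3 of 3 delta cell markers (median -0.21) and for the PP cell marker Ppy (-0.07). The summed signal of the 9 genes on the macrophage list was 7048 to 12887 on standard and 3979.6 to 6694 on cafeteria arrays, without overlap. On average Cd74 gave the largest part of this sum, with mean signals of 4412 and 2168, and the lack of overlap rested on it. The log2 fold was below 0 for 8 of 8 tested genes on this list (median -0.45), but unevenly. Ptprc had -0.98, Cd74 -0.95, Lyz2 -0.60, C1qc -0.59 and Csf1r -0.30, while C1qb had -0.14, C1qa -0.10 and Cd68 -0.004. Whether macrophages or other immune cells carried these differences was not tested. The summed signal of the 7 named lymphocyte markers, 4 of them under the filter, was 655 to 3087 and 511 to 694. Both maxima came from standard replicate 3; without it the standard ranges were 7048 to 7649 and 655 to 941. Acinar markers (10 named) gave 3431 to 8745 and 2670.2 to 9328, and proliferation markers (7 named) 2891 to 3909 and 3005 to 4788. The log2 fold was above 0 for 9 of 10 acinar markers (median 0.49) and for 7 of 7 proliferation markers (median 0.23), and none of these markers was below 0.05 after limma's adjustment (lowest adjusted p = 0.839). Endothelial markers were below 0 in 5 of 5 (median log2 fold -0.32) and tested duct markers in 3 of 3 (median -0.18). Tested lymphocyte markers were below 0 in 3 of 3 (median -0.75), and stellate and fibroblast markers in 3 of 6 (median -0.02). Both named Schwann markers were under the filter. No cell type list had a named marker with a mean signal of 0. The part of these differences in the values of the ribosome biogenesis genes was not tested.

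The wider machinery was followed in 7 lists chosen by role, with 151 genes besides the 10. Of these, 143 had a named probe set and 140 passed the filter. None was below 0.05 after limma's adjustment (lowest adjusted p = 0.839). Unadjusted limma p-values below 0.05 were found for 4, with Taf1b, Tsr1 and Gnl2 higher and Ubtf lower in cafeteria islets, 2.86% of those tested, against 5.8% of all probe sets. A log2 fold above 0 was found for 98 of 140, or 70%, where 48.1% of all probe sets tested were above 0. The median was 0.08, beside -0.01 for all. The acinar and proliferation markers lay mostly above 0 on the same arrays, and their part in this share was not tested. With each array left out the share above 0 lay between 62.9% and 71.4%, lowest without standard replicate 3. With each array scaled to one median it was 77.9%, beside 57% of all probe sets. These genes share arrays and are not independent, and the median is small beside the spread between arrays.

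RNA polymerase I and its factors had 13 tested genes besides Polr1b, with 6 above and 7 below 0. Ubtf, the factor that binds the rDNA promoter, had a signal of 622 ± 22.0 (SD, n = 4) in standard and 464 ± 82.4 (SD, n = 5) in cafeteria islets, a log2 fold of -0.43 ± 0.15 (SE). Taf1b, a subunit of the selectivity factor that recruits the polymerase, had 212 ± 18.7 and 300.2 ± 60.4, a log2 fold of 0.45 ± 0.18. Polr1g, a polymerase subunit, had 0.36 ± 0.33. Of these, Ubtf and Taf1b had unadjusted p-values of 0.0131 and 0.0230 by limma, and both had an adjusted p of 0.839.

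Among the factors of the small subunit, 36 of 50 tested genes other than members were above 0, with a median of 0.07. Tsr1, which acts in late pre-40S maturation, had 1179 ± 70.0 and 1392 ± 109.7 (SD), a log2 fold of 0.23 ± 0.10 (SE). Bysl and Heatr1, of the same assembly line, had 0.32 ± 0.16 and 0.29 ± 0.15. Utp11, named after its value was seen, had the largest log2 fold in this list after Rrp12, 0.39. In the pre-60S list 39 of 51 were above 0, with a median of 0.11. The nucleolar GTPase Gnl2 had 0.38 ± 0.16, the export adaptor Nmd3 0.26 ± 0.12 and Brix1 0.25 ± 0.12.

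Other box C/D genes had a median log2 fold of 0.04 (6 of 7 above 0), with Znhit6, an assembly factor of the particle, at 0.20, Rpap3 at 0.09 and Ruvbl2 at 0.05. Other box H/ACA genes had a median of 0.10 (3 of 4 above 0), with the core subunits Gar1, Nop10 and Nhp2 at 0.31, 0.09 and -0.08. Nucleolar phosphoproteins other than Ncl had 2 of 4 above 0, with Nop53 at -0.22, Ddx21 at 0.09 and Tcof1 at 0.13. The RNA exosome, which trims rRNA precursors, had 6 of 11 above 0, with its helicase Mtrex at 0.28, Exosc10 at -0.27 and Exosc7 at 0.14.

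The Myc network, whose members bind E-boxes, had 10 of 12 genes tested, 4 above and 6 below 0, with a median log2 fold of -0.06. Myc itself was under the filter, with signals of 95.3 ± 74.3 (SD, n = 4) and 68.1 ± 28.5 (SD, n = 5). Mycl and Mycn had log2 folds of -0.30 ± 0.24 (SE) and -0.12 ± 0.18, and their partner Max had 0.08 ± 0.12. The antagonists Mnt, Mxi1, Mxd1 and Mxd4 had -0.29, -0.09, 0.23 and 0.14. Mlx, Mlxip and the glucose-responsive factor Mlxipl had 0.13, -0.09 and -0.03. None of the 10 had an unadjusted p under 0.05 by limma (lowest adjusted p = 0.839).

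**Figure D5:**
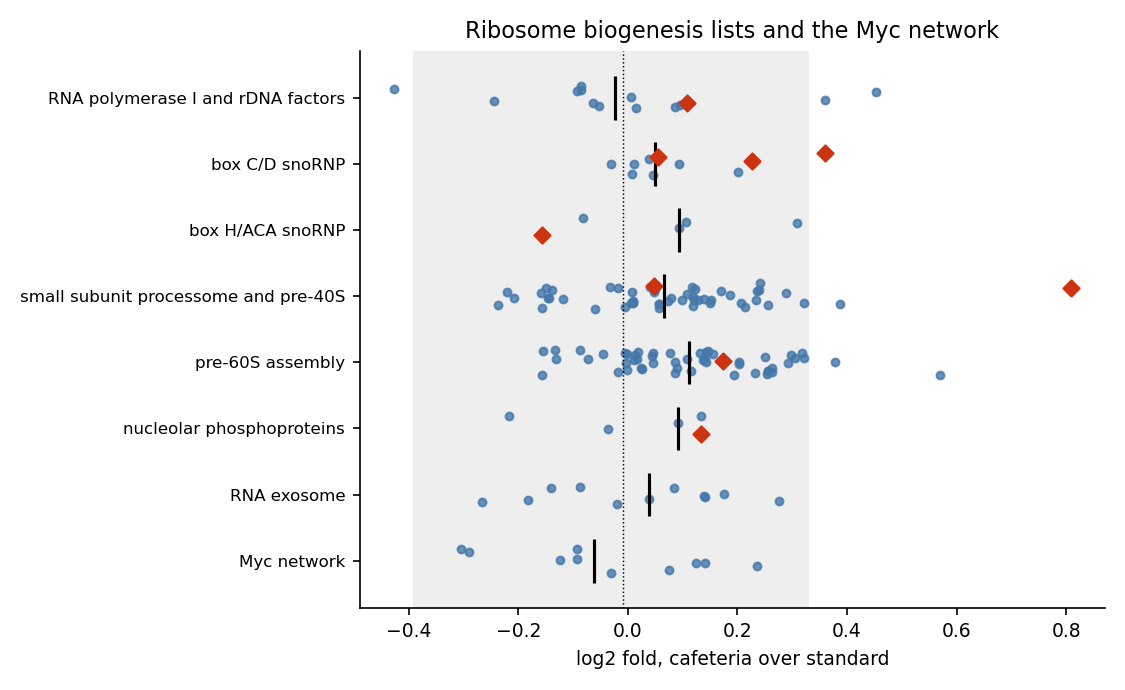
Log2 fold of cafeteria over standard for each tested gene of the 7 ribosome biogenesis lists and the Myc network; red diamonds are the genes of the set, black bars list medians over all genes of a list, the dotted line the median of all 18625 probe sets and the grey band their 5th to 95th percentile (-0.39 to 0.33). The main Rrp12 probe set, whose difference chose the gene, stands at 0.81, and its other probe sets, not drawn, had 0.27 and 0.04. The pre-60S list lies mostly to the right of 0.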

How the data were processed

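The authors deposited one linear intensity value for each probe set and array, and the submitters' processing notes name MAS5 without a version or settings. Each array had a 2% trimmed mean of 500, so values were used unscaled. The 57 control probe sets were left out. Of 31042 others, 20826 have 1 symbol, 436 have several and 9780 none in the platform annotation supplied.

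After addition of 16, values were taken to log2 and fitted with limma 3.58.1 under R 4.3.3 (2 groups, variance trend on). The 18625 probe sets with a mean log2 value at or above the 40th percentile entered the fit. Taken back from log2, this limit is a signal of 91.1. The p-values were adjusted over all 18625 by Benjamini-Hochberg. A gene's main probe set has the highest mean signal. Correlations used group-centred log2 values and exact permutation within groups. Scripts were tested on simulated data. Named genes besides the 10 were, per list, up to 3 with the smallest unadjusted p, all tested Myc network genes, the 8 most like Rrp12 and, as levels, markers of high signal. The members and lists were chosen with earlier results of these data known. Plots used Python 3.11.15. Alternatives were other pseudocounts, normalisations, filters and variance models, each array left out, the replicate number as a block and other probe sets; a beta-actin covariate, 3 arrays left out together and single other probe sets were added after the data were seen.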

Additional observations from a re-analysis of the deposited data

Results flagged for a closer look

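The Polr1b signal of standard replicate 3, at 309, lay apart from the other 3 standard arrays, the nearest of which read 260.2; the gap was 0.859 of the group's range. Of the 24 groups of array signals checked (12 probe sets in 2 diets), this was the only one, and chance flags about 1 in 20.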

How the results depend on the processing

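No diet difference of the 9 genes moved by as much as 1 SD between arrays with another pseudocount or normalisation, or with 3 arrays left out together. The filter and the variance model do not enter a log2 fold. Leaving out 1 array cannot move it by 1 SD, so these settings could not show such a move. Without standard replicate 3 the log2 fold was 0.0089 for Wdr12 and 0.010 for Ncl, and without other single arrays those of Fbl and Rrp9 changed sign. Moves of 1 SD or more came from the probe set, with Rrp12 at 0.37, 0.27 or 0.04 and Nop56 at 0.42. With the replicate block, which also sets aside cafeteria replicate 5, 7 of 9 log2 folds were above 0, Rrp12 had 0.73 and Fbl -0.01. Arrays with the same replicate number showed no shared deviations: their deviations had correlations from -0.384 to 0.0296. These values cannot tell whether samples with the same number were handled together. Probe sets with an unadjusted p under 0.05 numbered 582 with the replicate block, 1717 with no filter, 657 without the 3 doubted arrays (standard replicates 1 and 3 and cafeteria replicate 3) and 711 to 1674 with each array left out (fewest when standard replicate 3 was dropped; 1674 when standard replicate 1 and 1655 when cafeteria replicate 1 was dropped). Adjusted calls numbered 0 to 2 with each array left out, 2 without standard replicate 2 and 0 in all other settings. Rrp12 had no adjusted correlation under 0.05 in any of 17 alternatives. With each array left out its r lay between -0.314 and 0.593 for Nop58, -0.278 and 0.0126 for Ncl, -0.350 and 0.467 for Dkc1, and -0.548 and 0.00875 for Rrp9. Signs turned for Dkc1 with a pseudocount of 1 (0.00079) and without standard replicate 1 (0.0167), cafeteria replicate 2 (0.0430) or cafeteria replicate 3 (0.467). They turned for Ncl without standard replicate 1 (0.0023) or cafeteria replicate 3 (0.0126), for Nop58 without cafeteria replicate 1 (-0.314) and for Rrp9 without cafeteria replicate 3 (0.00875). With the mean of all probe sets of a gene, r was -0.286 for Nop56, -0.0838 for Fbl, 0.328 for Dkc1, -0.228 for Polr1b and 0.295 for Rrp9. With 1386668_a_at for Rrp12 the median r over the 8 genes was -0.228. The cause of these turns was not tested.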
